A study of Mus musculus with 24 samples.

Results

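The transcripts of 9 genes of bone morphogenetic protein (BMP) signalling were followed in mouse pancreatic stellate cells (PSC) that shared a culture well with pancreatic cancer cells. They comprised the ligand genes Bmp2, Bmp4 and Bmp6, the protease gene Bmp1, the antagonist genes Grem1, Nog and Chrdl1, and the response genes Id1 and Id3. These 9 were chosen by name from the 53801 genes with deposited FPKM values (fragments per kilobase of transcript, scaled to the counted fragments of each library), a rule that uses no measured value, although earlier results of these data were known when they were picked. PSC, the fibroblast-like cells of the pancreas that lay down matrix in tumours, came from pooled pancreata of adult wild-type C57BL/6J mice of both sexes. The cancer cells were 1 KPC line, grown from a tumour of a single female mouse in which p48-Cre had switched on a mutant Trp53 allele, among others, in pancreatic cells. In standard co-culture, PSC sat on a microporous membrane above KPC cells on the well bottom. In inverse co-culture, KPC cells sat on the underside of that same membrane, and they were already in place for 24 h when the PSC were added, another 24 h before the experiment began. In the standard model the insert with PSC joined the KPC cells only at the start, so the shared time was 24 h longer in the inverse model. Control PSC were mono-cultured in the same inserts. RNA was taken after 24 h or 72 h, and each of the 8 groups (model, culture and time) had 3 libraries. Standard libraries took 450 ng of RNA and inverse ones 120 ng. The medium differed too: standard PSC and their controls were seeded in a low-glucose medium with more serum and changed to the final medium at the start. Inverse PSC and their controls were in the final medium from seeding, without a change at the start. The model, the shared time, the medium and the RNA amount therefore cannot be told apart. P-values measure only the spread between these libraries.

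BMPs are secreted dimers that bind pairs of type I and type II serine/threonine kinase receptors, which phosphorylate SMAD proteins that enter the nucleus and switch on genes such as Id1 and Id3. Gremlin 1, noggin and chordin-like 1, the products of Grem1, Nog and Chrdl1, bind BMPs outside the cell and keep them from their receptors. BMP1 is not a BMP ligand but a metalloprotease that trims procollagens and cleaves the antagonist chordin. In the pancreas, BMP signalling is known for its part in development and for opposing transforming growth factor beta in fibroblasts, and gremlin 1 is a well-known product of fibroblasts in tumours.

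The stretches just upstream of 2 members are shown because Bmp4 and Grem1, a ligand and its antagonist, were both lower in inverse co-culture at 72 h. RefSeq promoter sequence of build GRCm38.p6 was at hand for 4 members. The windows of Bmp6 and Id3 lay on annotated exons and are not printed. Each window holds the 250 bases before the transcription start on the strand of the gene, at chr14:46390670-46390919 for Bmp4 and chr2:113758649-113758898 for Grem1, both on the minus strand. Capitals mark matches on either strand to GGCGCC, a GC-rich SMAD element, to CAGAC, a SMAD-binding element, or to TGACTCA, an AP-1 site.
Bmp4: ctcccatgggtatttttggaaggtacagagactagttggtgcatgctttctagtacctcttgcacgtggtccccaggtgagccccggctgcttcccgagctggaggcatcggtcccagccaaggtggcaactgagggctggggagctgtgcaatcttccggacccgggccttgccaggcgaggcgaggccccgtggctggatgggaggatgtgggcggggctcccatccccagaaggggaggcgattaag
Grem1: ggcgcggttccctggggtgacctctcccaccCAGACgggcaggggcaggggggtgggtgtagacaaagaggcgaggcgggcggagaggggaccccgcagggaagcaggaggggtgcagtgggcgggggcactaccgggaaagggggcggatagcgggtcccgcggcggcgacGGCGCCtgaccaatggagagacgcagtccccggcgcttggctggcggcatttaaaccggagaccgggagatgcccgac
The Grem1 window held 1 GGCGCC, starting 78 bases before the transcription start, and 1 CAGAC, and none of the motif strings was found in the Bmp4 window. Over all 32851 promoter windows of the same length, 9.59% held GGCGCC, 42.2% held CAGAC and 4.46% held TGACTCA. The GC content was 72.0% for Grem1 and 63.2% for Bmp4. These matches describe letters and not bound sites.

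Counted fragments per library, recovered from the FPKM values, ran from 15932737 to 24798761. The fibroblast markers Vim, Des, Acta2, Col1a1, Col1a2, Pdgfra, Pdgfrb, Thy1, Dcn and Lum were above 1 FPKM in every group, with summed levels of 11740 to 20530 FPKM per library. Of the 8 endothelial markers, 7 stayed at or below 1 FPKM in every group. Of the 5 markers of Schwann cells or glia, at least 4 did so in each group, as did 4 of the 5 acinar markers. Macrophage markers were present throughout and highest in the standard libraries numbered 2, where Lyz2 read 266 to 916 FPKM. The 4 standard libraries numbered 1 stood apart: Grem1 read 2.61 to 10.1 FPKM there and 23.4 to 68.5 FPKM in those numbered 2 and 3, and Acta2 reached 5963 FPKM. Keratin transcripts, which KPC cells make, stood out in 1 inverse co-culture library, number 2 at 24 h, where Krt8 read 15.2 FPKM, against at most 3.14 FPKM in the other inverse co-cultures and 0 FPKM in all 6 inverse controls. The defining epithelial marker Epcam was at or below 0.123 FPKM in all 24 libraries.

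Ordered by the median FPKM of the 24 libraries, Id3 stood first with 885 FPKM (477 to 1184), then Bmp1 with 349 FPKM (219 to 450) and Id1 with 159 FPKM (92.2 to 218). Grem1 followed with 19.7 FPKM (2.61 to 68.5) and Bmp6 with 14.3 FPKM (5.08 to 33.1), and the ranges of that pair overlapped. Bmp4 with 5.35 FPKM (1.12 to 14.1) and Nog with 5.04 FPKM (1.27 to 10.8) overlapped almost wholly. Bmp2, at 1.33 FPKM (0.227 to 3.99), exceeded 1 FPKM in 14 libraries. Chrdl1 was the rarest, at 0.296 FPKM (0.0179 to 1.18), or 1 to 84 fragments per library, and exceeded 1 FPKM in 2 libraries. The other 7 members were above 1 FPKM in all 24 libraries. The order depends on the gene length used: per kilobase of all annotated exons, Id1 (median 144) passed Bmp1 (116) and Nog (5.04) passed Bmp4 (2.66). In build GRCm38 the most abundant ligand gene among the members, Bmp6, lies on chromosome 13 from 38345107 to 38500302 on the plus strand. It shares 224 of its 3900 exon bases with Txndc5 on the other strand. Bmp4, at chromosome 14 from 46383520 to 46390669, shares 89 of 2248 exon bases with Gm15217. Counting disregarded the strand, so reads of such shared bases cannot be assigned to 1 gene. No exon of another annotated gene overlapped the remaining 7 members. Grem1 lies on chromosome 2 from 113746164 to 113758646 (minus strand), and Bmp2 on the same chromosome from 133552159 to 133562885 (plus strand). Nog is at chromosome 11 from 89300638 to 89302332, Bmp1 at chromosome 14 from 70474558 to 70520234 and Chrdl1 at chromosome X from 143285674 to 143394262, all on the minus strand. Id1, at chromosome 2 from 152736251 to 152737410, and Id3, at chromosome 4 from 136143497 to 136145755, are on the plus strand.

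**Figure D1:**
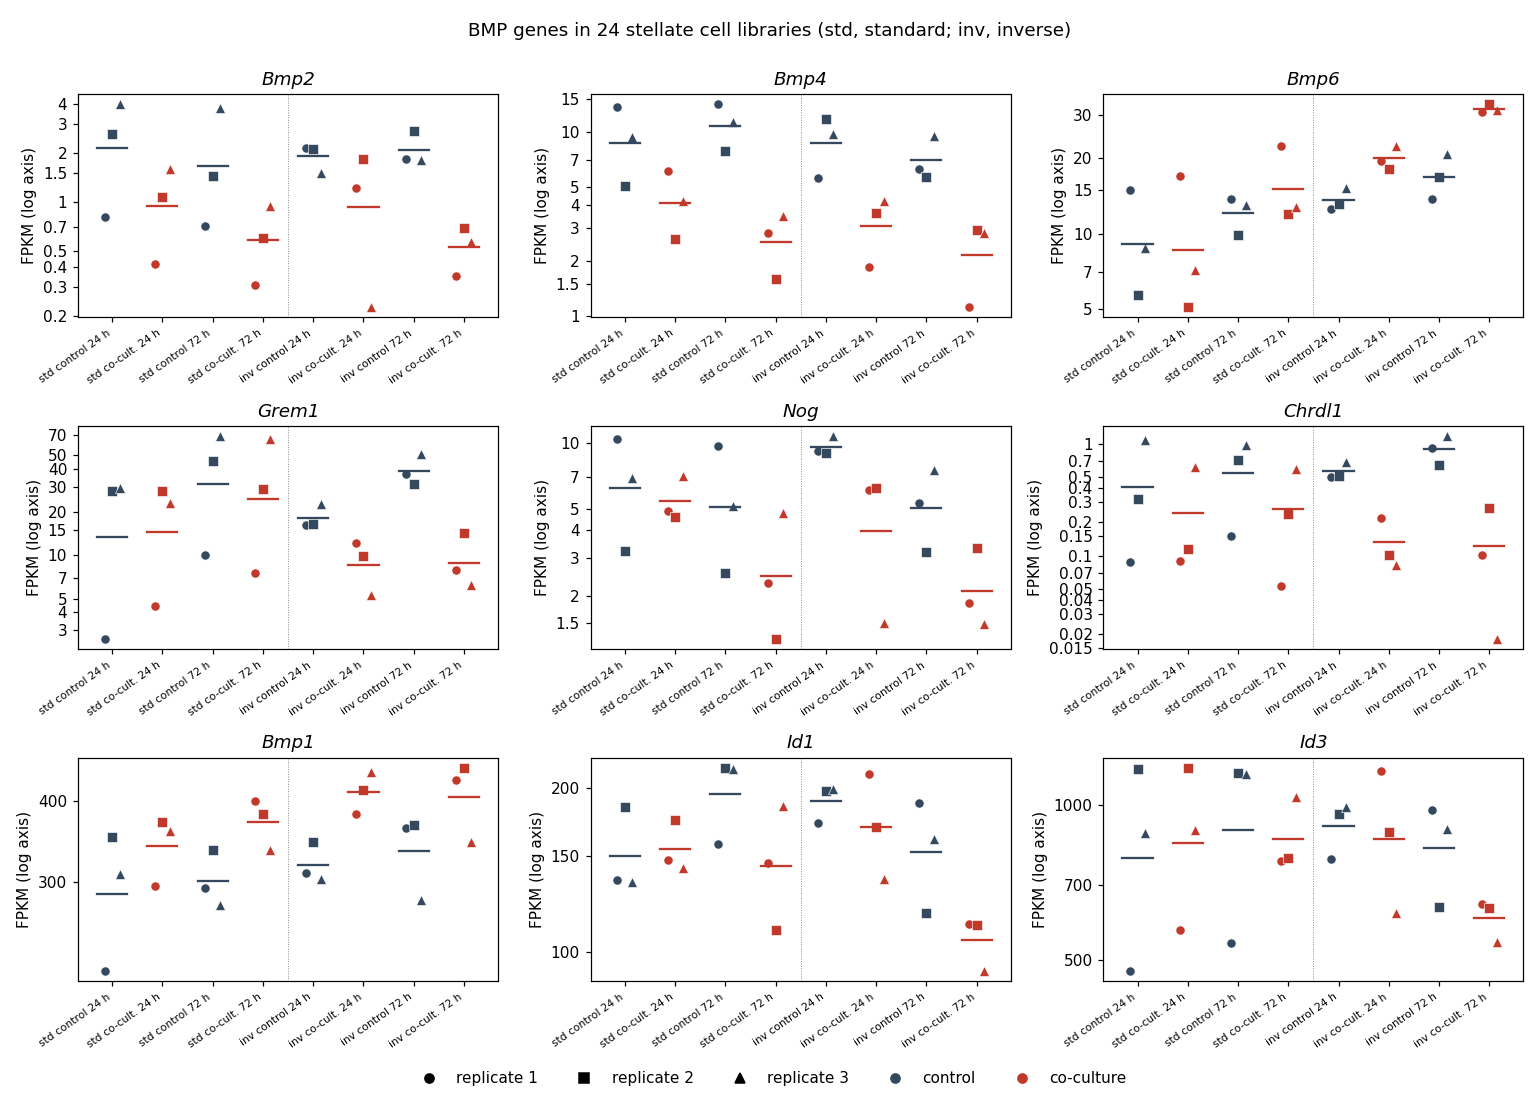
FPKM (log axis) of the 9 members in each library, by group, with symbols for the replicate number, dark points for control, red points for co-culture and lines for the mean on the log2(FPKM + 0.5) scale. The co-culture points of Bmp4 lie below the control points without overlap except at 24 h of the standard model, and Bmp6 reached 30.6 to 33.1 FPKM in inverse co-culture at 72 h.

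In inverse co-culture at 72 h, the ligand transcripts Bmp2 and Bmp4 and the antagonist transcript Grem1 were down-regulated and Bmp6 was up-regulated against mono-cultured control PSC. These were 4 of the 8 members tested, where 12.8% of the 13066 genes tested passed (limma on log2(FPKM + 0.5), Benjamini-Hochberg adjusted p below 0.05, genes above 1 FPKM in at least 3 of the libraries compared). Of all genes, 3.27% passed as higher and 9.57% as lower, against 1 and 3 of the members. Bmp2, among those 4 and those 3 lower, passed the filter only through the 3 controls in which it is high. It therefore had to differ to be tested. The median of all genes was -0.16 on the log2 scale in this comparison and -0.0078 with median-ratio scaling, which turned the genes called from 427 higher and 1251 lower into 746 higher and 686 lower. The 4 members were called under that scaling too, with log2 fold changes of -1.91 for Grem1, -1.36 for Bmp4, -1.22 for Bmp2 and 1.04 for Bmp6. With quantile normalization Bmp2 lost its call (-1.06, limma adjusted p = 0.095) and the other 3 kept theirs.

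Bmp4, a ligand of the mesenchyme, read 6.30, 5.65 and 9.52 FPKM in the inverse controls at 72 h and 1.12, 2.93 and 2.82 FPKM in co-culture. The lowest control was above the highest co-culture library. The log2 fold change was -1.50 (SE 0.34, limma adjusted p = 0.029, n = 3 per group). Bmp2, a close relative of Bmp4 in sequence and receptor use, read 1.82, 2.72 and 1.81 FPKM in control and 0.351, 0.695 and 0.572 FPKM in co-culture, again without overlap. Its log2 fold change was -1.33 (SE 0.30, limma adjusted p = 0.030). Bmp2 passed the filter on low values only through the 3 controls, all its co-culture libraries being below 1 FPKM, so it dropped out of the test when any 1 control was left out, and with no filter it was not called (0.062). Bmp6, a ligand of another branch of the family known for its part in iron balance, moved the other way, from 13.7, 16.8 and 20.9 FPKM to 30.6, 33.1 and 31.2 FPKM. Every co-culture library exceeded every control, and the log2 fold change was 0.88 (SE 0.16, limma adjusted p = 0.014). Grem1 showed the widest difference of the tested members, with 37.0, 31.5 and 50.8 FPKM in control and 7.88, 14.3 and 6.22 FPKM in co-culture. The groups were well apart, and the log2 fold change was -2.07 (SE 0.30, limma adjusted p = 0.0081).

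The other antagonists pointed down without a call. Nog, which encodes noggin, read 5.36, 3.19 and 7.56 FPKM in control and 1.86, 3.32 and 1.48 FPKM in co-culture, and the groups overlapped at 1 library (log2 fold change -1.09, limma adjusted p = 0.080, n = 3 per group). Chrdl1 did not pass the filter on low values in any comparison. It read 0.926, 0.647 and 1.18 FPKM in control and 0.1, 0.269 and 0.0179 FPKM in co-culture, with no overlap, and when genes of any level above 0 were tested its log2 fold change was -1.17 (limma adjusted p = 0.059). The protease transcript Bmp1 read 282 to 367 FPKM in control and 347 to 450 FPKM in co-culture, with overlap (log2 fold change 0.28, limma adjusted p = 0.25). For Id1, an inhibitor of bHLH transcription factors, control read 188, 118 and 161 FPKM and co-culture 112, 112 and 92.2 FPKM. These did not overlap, but the log2 fold change of -0.54 (SE 0.18) missed the threshold (limma adjusted p = 0.082). Its paralog Id3 read 982, 635 and 901 FPKM against 642, 633 and 542 FPKM, with overlap at 1 library (log2 fold change -0.45, limma adjusted p = 0.13). In all, 5 of the 8 tested members had no overlap between the groups, Bmp2 with its filter limit among them, where 38.3% of all genes tested had none.

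Other markers moved in the same comparison. All 7 adipocyte markers (Plin1, Adipoq, Fabp4, Cidec, Lep, Cfd and Pparg) were lower in every inverse co-culture library at 72 h than in every control, with summed levels of 37.6 to 132 FPKM against 465 to 963 FPKM. Of the 8 macrophage markers, 7 were lower in the same way, with summed levels of 54.5 to 83.7 FPKM against 128 to 249 FPKM. Of the 10 epithelial markers, 2 were higher and 1 lower without overlap, and the list summed to 9.95 to 13.4 FPKM against 8.66 to 14.2 FPKM, with Epcam at 0 in all 6 libraries. The 10 fibroblast markers summed to 16230 to 18410 FPKM against 11740 to 15270 FPKM. They did not move as a class: 3 were higher and 1 lower without overlap, and 5 had a lower mean in co-culture. The part of these shifts in the member values was not tested, and in bulk RNA fewer cells of a type and less RNA per cell cannot be told apart.

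The call for Bmp4 was lost without inverse co-culture replicate 1 (limma adjusted p = 0.063) and without control replicates 1, 2 or 3 (0.083, 0.056 and 0.11). Bmp2 and Bmp6 lost theirs without co-culture replicate 1 (0.089 and 0.056), and when all 24 libraries were fitted in 1 model Bmp4 alone passed (0.032), with Grem1 at 0.14, Bmp6 at 0.11 and Bmp2 at 0.098. Grem1 was called in all 6 fits that left out 1 library. Conversely, Nog passed without co-culture replicate 2 (0.047), and Id1 and Id3 passed without control replicate 2 (0.033 and 0.040).

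At 24 h of inverse co-culture no member passed, where 2.47% of 12827 genes did, 1.08% as higher and 1.39% as lower. There were 139 genes higher and 178 lower, and 179 higher and 145 lower with median-ratio scaling. The 3 libraries per group nevertheless stood apart for Bmp1, Bmp4, Bmp6, Grem1 and Nog, 5 of 8 tested members, against 21.2% of all genes. Bmp4 read 5.61, 11.7 and 9.76 FPKM in control and 1.85, 3.63 and 4.22 FPKM in co-culture (log2 fold change -1.35, SE 0.33, limma adjusted p = 0.077). The paper's DESeq2 test on counts lists Bmp4 as differentially expressed in this comparison. Grem1 read 16.5, 16.7 and 22.8 FPKM and 12.2, 9.87 and 5.30 FPKM, lowest in co-culture replicate 3 (log2 fold change -1.05, SE 0.27, limma adjusted p = 0.097). That library also read lowest of its group for Nog, at 1.5 FPKM against 6.09 and 6.26 FPKM, and for Bmp2, at 0.227 FPKM against 1.22 and 1.83 FPKM. Inverse controls at 24 h read 9.06 to 10.8 FPKM for Nog (log2 fold change -1.19, limma adjusted p = 0.22) and 1.51 to 2.15 FPKM for Bmp2 (-0.76, limma adjusted p = 0.48). Bmp4 passed when co-culture replicate 3 was left out (limma adjusted p = 0.042), and Grem1 when co-culture replicate 1 was (0.041). Chrdl1 again failed the filter, at 0.504, 0.513 and 0.691 FPKM in control and 0.216, 0.102 and 0.0831 FPKM in co-culture, without overlap.

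Higher values at 24 h were seen for Bmp6, at 12.6, 13.1 and 15.2 FPKM in control and 19.6, 18.2 and 22.5 FPKM in co-culture (log2 fold change 0.54, limma adjusted p = 0.087). Bmp1 stood at 303 to 346 FPKM in control and 382 to 444 FPKM in co-culture (log2 fold change 0.37, limma adjusted p = 0.11). The response genes gave the smallest differences, with log2 fold changes of -0.16 for Id1 (95% interval -0.51 to 0.20) and -0.08 for Id3 (-0.55 to 0.40). Epithelial markers summed to 9.54 to 51.9 FPKM in inverse co-culture at 24 h and 6.98 to 8.34 FPKM in control. Without co-culture replicate 2, the library with the most keratin, the count of members called stayed at 0, and 106 of all genes were called in place of 317. Leaving out each of the 6 libraries in turn gave 67 to 412 genes, so that drop is not particular to this library. Adipocyte markers were lower without overlap for 3 of 7, with summed levels of 113 to 253 FPKM against 213 to 307 FPKM, and 1 of 8 macrophage markers was, with sums of 25.8 to 85.9 FPKM against 74.6 to 83.0 FPKM. Of the 5 mesothelial markers, 3 were higher without overlap, with sums of 32.8 to 42.1 FPKM against 20.5 to 24.7 FPKM. Of the 10 fibroblast markers, 4 were lower and 2 higher without overlap. Whether these markers had a part in the 24 h values was not tested.

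In standard co-culture no member passed at either time, and neither did any other gene (0% of 12859 genes at 24 h and 0% of 12863 at 72 h, limma), with 371 and 800 genes at an unadjusted p below 0.05. Voom on recovered fragments called 0 genes as well. The paper, with DESeq2 on counts, did report differentially expressed genes in standard co-culture at both times. It lists Bmp4 among them at 72 h, so the lack of calls holds for the fits made here. At 72 h Bmp4 read 14.1, 7.85 and 11.3 FPKM in control and 2.83, 1.59 and 3.51 FPKM in co-culture, without overlap. The log2 fold change was -1.90 (SE 0.32), lower in 3 of 3 same-numbered pairs, with a limma adjusted p of 0.50. When the 24 libraries shared 1 model, this difference passed (limma adjusted p = 0.0496). Bmp1 was the only other member without overlap, at 277 to 336 FPKM and 337 to 400 FPKM (log2 fold change 0.30, limma adjusted p = 0.78), so 2 of 7 tested members stood apart where 13.1% of all genes did.

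Standard libraries of the same number deviated together, so the fit with the replicate number as a block is given where it alters a call. At 24 h that fit called Bmp4, which read 13.7, 5.09 and 9.36 FPKM in control and 6.13, 2.60 and 4.2 FPKM in co-culture. Control and co-culture overlapped as groups, yet co-culture was lower in 3 of 3 pairs, and the log2 fold change of -1.0 had a blocked limma adjusted p of 0.030, where 157 genes (1.22%) passed in place of 0. Without the block the adjusted p was 1. The blocked fit at 72 h called 1 gene of all (0.00777%) and no member, with Bmp4 at a limma adjusted p of 0.14. No member stood apart as a group at 24 h, where 7.73% of all genes did.

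The remaining standard values were wide. Bmp2 read 0.718, 1.44 and 3.76 FPKM in the 72 h controls and 0.312, 0.605 and 0.944 FPKM in co-culture, lower in 3 of 3 pairs, and failed the filter on low values at 72 h. At 24 h it read 0.816, 2.61 and 3.99 FPKM and 0.419, 1.07 and 1.59 FPKM (log2 fold change -0.87, limma adjusted p = 1). Grem1 was lower in 3 of 3 pairs but spanned 10.1 to 68.5 FPKM in the 72 h controls and 7.58 to 65.3 FPKM in co-culture. In the fit without the block, used for all standard intervals here, its log2 fold change of -0.36 carried a 95% interval of -2.65 to 1.93. That interval includes the spread between pairs. Without the libraries numbered 1, an alternative chosen after seeing the data, that value was -0.35, and still 0 members were called in the standard model. Leaving them out moved Nog at 72 h to -0.44, Bmp6 to 0.12 and Id3 to -0.35, and at 24 h Nog to 0.24 and Grem1 to -0.17. Bmp6, at 9.86 to 13.7 FPKM and 12 to 22.4 FPKM, gave 0.31 (-0.34 to 0.96). Nog gave -0.92 (-2.27 to 0.43), Id1 -0.44 (-1.0 to 0.11) and Id3 -0.06 (-0.86 to 0.75). By pairs, Nog was lower in 3 of 3, Id3 lower in 2 of 3 and Bmp6 higher in 2 of 3. In the 72 h controls Id1 read 157, 218 and 217 FPKM and in co-culture 145, 110 and 185 FPKM, lower in 3 of 3 pairs.

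At 24 h of standard co-culture the other members overlapped between control and co-culture and were not called. Grem1 read 2.61, 28.1 and 29.8 FPKM in control and 4.41, 28.4 and 23.4 FPKM in co-culture (log2 fold change 0.11, 95% interval -2.53 to 2.75). Bmp6 read 15, 5.70 and 8.80 FPKM and 17, 5.08 and 7.18 FPKM (-0.08, -1.33 to 1.16), and its highest value in each group was that of number 1. Nog gave -0.19 (-1.21 to 0.83), Bmp1 0.24 (-0.27 to 0.76), Id1 0.04 (-0.37 to 0.46) and Id3 0.10 (-0.91 to 1.10), all without the block. By pairs, Bmp1 and Id3 were higher in 3 of 3, Grem1, Nog and Id1 in 2 of 3 and Bmp6 in 1 of 3. Chrdl1 ran from 0.0883 to 1.08 FPKM in the standard controls at 24 h and from 0.0889 to 0.621 FPKM in co-culture.

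Macrophage markers had lower means in standard co-culture at 72 h for 8 of 8, and adipocyte markers for 6 of 7, but none was without overlap, with summed levels of 83.7 to 749 against 39.3 to 1321 FPKM and of 89.2 to 408 against 52.5 to 452 FPKM.

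**Figure D2:**
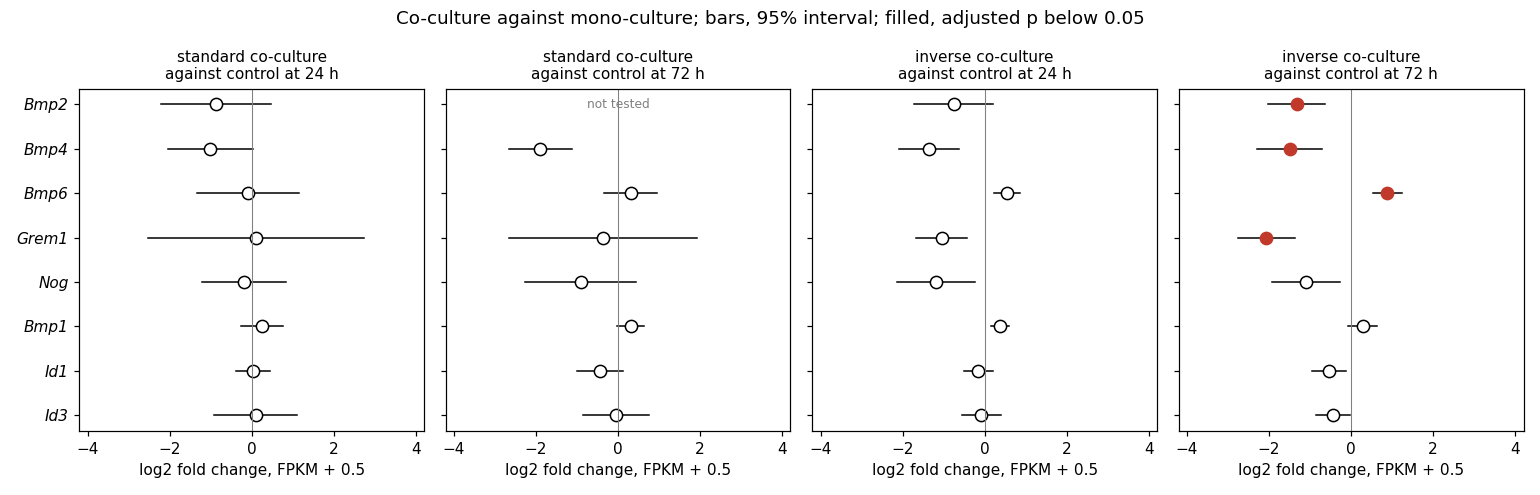
Log2 fold change of co-culture against control on the log2(FPKM + 0.5) scale for 8 members in 4 comparisons, with 95% intervals as bars and filled points for a limma adjusted p below 0.05. The 4 filled points all lie in inverse co-culture at 72 h, and Bmp4 lies below 0 in each of the 4 panels, between -1.0 and -1.90.

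Whether the models differed was tested directly, as the co-culture effect in the inverse model minus that in the standard model over all 24 libraries. No member and no gene passed at 24 h (0% of 14452) or at 72 h (0%), with 182 and 501 genes at an unadjusted p below 0.05, and voom likewise called none. At 72 h the difference was 0.39 for Bmp4 (95% interval -0.81 to 1.59), -1.71 for Grem1 (-4.27 to 0.86), 0.58 for Bmp6 (-0.43 to 1.58) and -0.34 for Bmp2 (-1.80 to 1.11). At 24 h it was -0.35 for Bmp4 (-1.55 to 0.85) and -1.16 for Grem1 (-3.73 to 1.41). These intervals are wide for Grem1, whose standard libraries numbered 1 read so low, and they do not show that both models act alike.

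The change of the effect from 24 h to 72 h likewise passed for no gene in the standard (0% of 13694) or the inverse model (0% of 13722), with 141 and 1471 genes at an unadjusted p below 0.05. Voom called 0 and 13 genes. In the inverse model the Grem1 effect was lower by 1.02 on the log2 scale at 72 h (95% interval -2.0 to -0.03, limma unadjusted p = 0.044, limma adjusted p = 0.45). Mean Grem1 was 9.10 FPKM at 24 h and 9.48 FPKM at 72 h in inverse co-culture, and 18.6 and 39.8 FPKM in control. That change of the effect thus came with a rise of the control and not with a further fall in co-culture. For Bmp4 that change was -0.15 (-1.26 to 0.96) in the inverse and -0.89 (-2.15 to 0.37) in the standard model.

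Over time in mono-culture 2 antagonists passed in the inverse controls, and no member passed in the standard controls. In the inverse controls, Grem1 rose from 16.5, 16.7 and 22.8 FPKM at 24 h to 37.0, 31.5 and 50.8 FPKM at 72 h (log2 fold change 1.06, SE 0.19, limma adjusted p = 0.0071), with no overlap. Nog fell by 0.87 on the log2 scale, from 9.22, 9.06 and 10.8 FPKM to 5.36, 3.19 and 7.56 FPKM (SE 0.26, limma adjusted p = 0.048). These were 2 of 8 tested members, a share near the 19.2% of 13092 genes that passed. The Nog call was lost without 5 of the 6 libraries in turn, namely the 24 h controls 1, 2 and 3 (limma adjusted p = 0.10, 0.11 and 0.12) and the 72 h controls 1 and 2 (0.090 and 0.067). Neither gene passed when all 24 libraries were fitted together (0.51 for Grem1 and 0.37 for Nog). Adipocyte markers summed to 213 to 307 FPKM in those controls at 24 h and 465 to 963 FPKM at 72 h, and macrophage markers to 74.6 to 83.0 FPKM and 128 to 249 FPKM, and their part was not tested. In the standard controls 0% of 12963 genes passed, with 127 at an unadjusted p below 0.05 and 0 by voom, and Grem1 was higher at 72 h in 3 of 3 pairs (log2 fold change 1.21, SE 1.09, limma adjusted p = 1.0).

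Mono-cultured PSC of the 2 models were compared at each time, since both are PSC without cancer cells, although their medium before the start and their RNA amount differed. No gene passed at 24 h (0% of 12903) or 72 h (0% of 13106), with 225 and 810 genes at an unadjusted p below 0.05 and 0 by voom. The widest member difference at 72 h was -0.59 for Bmp4 (95% interval -1.26 to 0.07), lower in the inverse controls. Without the standard libraries numbered 1, 58 genes passed at 24 h and 3 at 72 h, none of them a member. The sign of 4 uncalled members turned at 24 h, namely Grem1 (0.44 to -0.64), Bmp1 (0.15 to -0.05), Bmp4 (-0.01 to 0.30) and Id3 (0.20 to -0.16). At 72 h it turned for Grem1 (0.29 to -0.51), Nog (-0.0077 to 0.43) and Bmp2 (0.26 to -0.15).

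For 1 antagonist and 1 ligand transcript, the log2 ratio of Grem1 to Bmp4 within each library was described, with no test. It is no balance over all ligands and depends on the ligand picked. Bmp6, with a higher median FPKM than Bmp4, was up-regulated in inverse co-culture at 72 h (log2 fold change 0.88) where Bmp4 was down-regulated (-1.50). In the standard model the ratio was higher in co-culture in each same-numbered pair. At 72 h it read -0.47, 2.46 and 2.55 in control and 1.28, 3.84 and 4.04 in co-culture. At 24 h it read -2.19, 2.36 and 1.62 in control and -0.43, 3.22 and 2.35 in co-culture. Bmp4 was lower in co-culture in all of those pairs, and Grem1 was lower in all 3 at 72 h and in 1 of 3 at 24 h. In the inverse model at 72 h the ratio read 2.46, 2.38 and 2.36 in control, the tightest group of the 8 with a mean of 2.40 ± 0.06 (SD, n = 3). In co-culture it read 2.37, 2.11 and 1.02, and the groups overlapped at co-culture replicate 1. At 24 h of the inverse model it spanned 0.50 to 1.47 in control and 0.30 to 2.43 in co-culture, with overlap. The standard libraries numbered 1 gave the 3 values below 0.

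**Figure D3:**
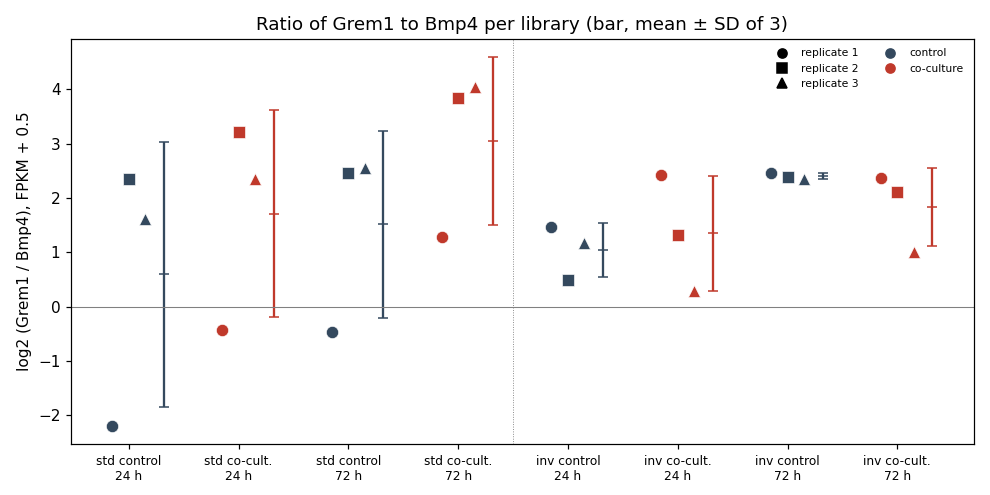
Log2 ratio of Grem1 to Bmp4 FPKM (each plus 0.5) in each of the 24 libraries, by group, with symbols for the replicate number and bars for the mean ± SD of 3. In the standard model each co-culture point lies above its same-numbered control, and the inverse controls at 72 h cluster at 2.36 to 2.46.

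Of 64 further genes of the pathway, in 6 lists by role, 45 were tested in inverse co-culture at 72 h, and 3 passed as higher (1 of them, Chrdl2, tested only because it is high in co-culture) and 4 as lower, beside the 3.27% and 9.57% of all genes given above. The median log2 fold change of the 45 was -0.09, against -0.16 over all genes. Among 3 tested ligands of 12 listed, Gdf6, a BMP-like factor of joints and skeleton, was up-regulated from 16.8, 12.9 and 15.1 FPKM to 73.0, 44.6 and 122 FPKM (log2 fold change 2.27, SE 0.32, limma adjusted p = 0.0077). Gdf10, also called Bmp3b, read 67.7 to 90.1 FPKM in control and 4.27 to 37.8 FPKM in co-culture, apart but not called (-2.26, SE 0.66, limma adjusted p = 0.061). Bmp8a, the third of them, gave -0.69 (limma adjusted p = 0.15). The ligand genes Bmp3, Bmp5, Bmp7 and Bmp10 never exceeded 0.529 FPKM.

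Among 12 tested antagonists and modulators of 15 listed, 2 were higher and 1 lower. Chrdl2, which encodes a second chordin-like BMP binder, rose from 0.263, 0.0768 and 0.170 FPKM to 6.82, 5.78 and 2.68 FPKM (log2 fold change 2.98, limma adjusted p = 0.0059), whereas Chrdl1 read lower. Chrdl2 passed the filter on low values only through the 3 co-culture libraries in which it is high, so it had to differ to be tested, and it could not be tested when any 1 of them was left out. With no filter it was called (limma adjusted p = 0.020). In standard co-culture at 72 h it read 4.24, 6.14 and 3.30 FPKM against 0.0302, 0.368 and 0.143 FPKM, apart but not called (2.89, limma adjusted p = 0.36). The paper's DESeq2 test on counts lists Chrdl2 as differentially expressed at 72 h in both models. Fstl3, a follistatin-like binder of activins, rose from 21.2 to 22.9 FPKM in control to 36.2 to 46.4 FPKM (0.92, limma adjusted p = 0.0068), and did not pass with all 24 libraries in 1 model (0.059). Nbl1, also known as DAN, fell by 0.82 on the log2 scale, from 304 to 445 FPKM to 200 to 239 FPKM (limma adjusted p = 0.018), and lost its call without co-culture replicate 1 or without control replicates 1 or 3 (0.073, 0.072 and 0.072). The most abundant of the list, Fstl1, a secreted follistatin-like glycoprotein, stayed between 1769 and 3015 FPKM in all libraries and was not called (0.23, limma adjusted p = 0.30). Bmper, a modulator that binds BMPs, gave 0.56 (limma adjusted p = 0.10).

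None of the 10 receptors and co-receptors tested passed. The most abundant were Eng, the co-receptor endoglin, Tgfbr3, betaglycan, and Acvrl1, the type I receptor ALK1, with log2 fold changes of -0.15, -0.09 and 0.24. Among 11 SMADs and intracellular inhibitors only Smad6, the inhibitory SMAD of the BMP branch, passed: it fell by 0.85 on the log2 scale, from 144, 150 and 171 FPKM to 91.2, 85.9 and 80.5 FPKM (SE 0.10, limma adjusted p = 0.0058), and with all 24 libraries in 1 model it did not pass (0.15). The other inhibitory SMAD, Smad7, gave 0.13 (limma adjusted p = 0.45), and the common partner Smad4 gave -0.03. Of 7 tested target genes, Id4 and Hey1 passed, both lower. Id4 read 70.9, 73.4 and 76.3 FPKM in control and 37.6, 37.3 and 32.1 FPKM in co-culture (log2 fold change -1.04, SE 0.10, limma adjusted p = 0.0038). Hey1, which also answers to Notch, read 13.6, 10.3 and 11.2 FPKM and 1.87, 1.19 and 3.72 FPKM (-2.24, SE 0.32, limma adjusted p = 0.0080). Id2 (-0.63, limma adjusted p = 0.056) and Atoh8 (-0.46, limma adjusted p = 0.071) did not pass. Of the BMP1-like proteases and their enhancers, Pcolce and Pcolce2, which speed procollagen trimming by BMP1, were tested and not called (0.29 and 0.21), and the protease gene Tll1 failed the filter.

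At 24 h of inverse co-culture 1 of 46 tested list genes passed, a share near the 2.47% of all genes. Crim1, a membrane protein that holds back BMPs, fell by 0.79 on the log2 scale, from 55.8, 44.0 and 48.4 FPKM to 23.4, 30.1 and 31.8 FPKM (SE 0.15, limma adjusted p = 0.030), and with median-ratio scaling the call was lost (0.071). It was lost as well without co-culture replicate 2 (0.087) and without control replicates 1, 2 or 3 (0.12, 0.081 and 0.13). In standard co-culture none of 45 list genes at 24 h and of 46 at 72 h passed.

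**Figure D4:**
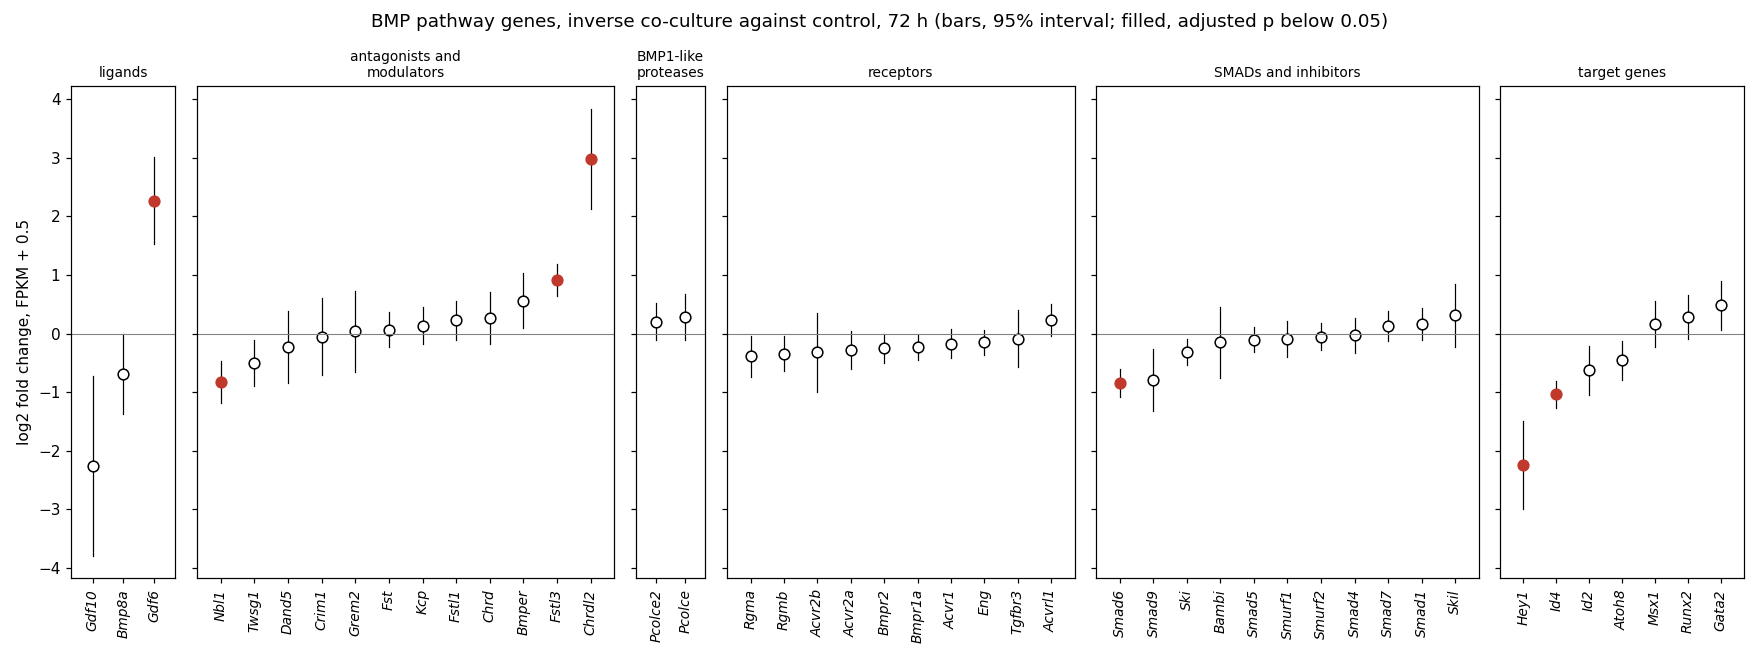
Log2 fold change of inverse co-culture against control at 72 h, on the log2(FPKM + 0.5) scale, for the 45 tested genes of 6 BMP lists, with 95% intervals and filled points for a limma adjusted p below 0.05. The 3 filled points above 0 are Gdf6, Fstl3 and Chrdl2, the 4 below 0 are Nbl1, Smad6, Id4 and Hey1, and no receptor is filled.

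Genes most like 3 of the members over the 24 libraries were listed as a description, among 12670 other genes, with the libraries sharing groups and replicate numbers. For Grem1 these were Reps2 (Pearson r = 0.93, Spearman rho = 0.90), N4bp2l2 (0.93 and 0.96), Cd55 (0.92 and 0.94) and Slfn5 (0.92 and 0.95). For Bmp4 they were Rasa4 (0.88 and 0.88), Slc35b4 (0.87 and 0.84), Flii (0.87 and 0.83), Lfng (0.86 and 0.83) and Itga8 (0.86 and 0.83). For Id1 they were H3f3a (0.87 and 0.82), Mtch1 (0.86 and 0.85), Id2 (0.86 and 0.79), Rabac1 (0.86 and 0.84) and Nrbp1 (0.85 and 0.84). Once the group means were removed, r stayed at 0.93 to 0.95 for the Grem1 genes and dropped to 0.39 to 0.62 for the Bmp4 genes. The SD of log2 Grem1 within groups was 1.40 to 1.87 in the standard and 0.26 to 0.59 in the inverse model. Most of that spread thus lay in the standard libraries, where those numbered 1 read low. Among the members themselves, Bmp1 and Bmp4 ran opposite to each other (r = -0.76, rho = -0.78). Id1 and Id3 tracked each other (r = 0.76, rho = 0.76), as did Grem1 and Chrdl1 (0.81 and 0.87), Bmp2 and Chrdl1 (0.77 and 0.75) and Grem1 and Id3 (0.74 and 0.67). Bmp4 and Grem1 did so little (0.13 and 0.18), with r = -0.40 once the group means were removed.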

How the data were processed

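RNA of PSC was sequenced at 24 h and 72 h in 24 libraries, 3 in each of 8 groups. The authors aligned reads with HISAT2 2.0.5 to GRCm38, counted fragments per gene with featureCounts 1.5.0-p3 without regard to strand and deposited FPKM values, which are relative to each library's own total. They called DEG with DESeq2 1.20.0 from counts not used here. The annotation release is not given in the sources used here. Symbols came from GENCODE M21 (53706 of 53801 genes matched).

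From the FPKM values, whole fragments were recovered for 92.1% of genes above 0 (tolerance 0.05 fragments), and the gene length behind them equalled the mean transcript length, within 1 base, for 88.5% of 14440 expressed genes. Totals of 15932737 to 24798761 fragments set the precision, and for Chrdl1 the median was only 15 fragments.

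Comparisons were fitted with limma 3.58.1 (R 4.3.3) with an intensity trend on log2(FPKM + 0.5), for genes above 1 FPKM in at least 3 of the libraries compared. Two-group comparisons used their 6 libraries, differences between models all 24 and differences between times 12. P-values were Benjamini-Hochberg adjusted over all genes tested, with a limit of 0.05.

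Same-numbered standard libraries deviated together from their group means (r of 0.48 to 0.82 between control and co-culture), which marks them as pairs, whereas inverse ones did not (-0.17 to 0.10). The paper calls the 3 libraries biological replicates.

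All members were named, and of the list genes those called or among the 3 most abundant of their list. For Bmp4, Grem1 and Id1 the 5 genes with the highest Pearson r, above 1 FPKM in at least 12 libraries, were named, except 1 for Grem1 that is not reported here. Members and lists were chosen with earlier results of these data known. Alternatives tried were the pseudocount, the filter, scaling between libraries, the trend, voom, the replicate block, wider fits and leaving out each library.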

Additional observations from a re-analysis of the deposited data

How the results depend on the processing

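Of 999 member values under alternatives other than leaving out 1 library, 961 kept direction and side of the threshold, 12 lost and 5 gained a call, none turned the direction of a called value, and 21 uncalled values moved. The number of members called in inverse co-culture at 72 h (4) became 3 with quantile normalization, 3 with the replicate block, 2 with no filter, 2 with a mean FPKM above 5 (a filter that left Bmp2 and Bmp4 untested) and 1 with all 24 libraries in one model, and 1 to 5 when a library was left out. At 24 h (0) it became 2 with voom on recovered fragments, 1 with the replicate block, and 0 to 1 when a library was left out. In the inverse controls over time (2) it became 1 with a pseudocount of 0.1, 1 with no filter, 1 without the intensity trend, 0 with all 24 libraries in one model, and 1 to 2 when a library was left out. In the standard model (0) it became 1 with the replicate block at 24 h and 1 with all 24 libraries in one model at 72 h. With the replicate block, Bmp4 in inverse co-culture at 24 h passed (limma adjusted p = 0.045) and Bmp2 and Nbl1 at 72 h did not (0.059 and 0.052); the inverse libraries share only a number, and the block took the count of all genes called from 317 to 88 and from 1678 to 902. Other counts of all genes at 24 h and 72 h of inverse co-culture were 50 and 888 with no filter, 98 and 1310 without the trend, 523 and 2068 with voom, and 12 and 940 with all 24 libraries, and leaving out 1 library took them as low as 67 and 368. Over 24 libraries the standard model gave 5 and 45 genes.

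Of the list genes in inverse co-culture at 24 h, the count called lower (1) became 0 with no filter, median-ratio scaling, quantile normalization, no intensity trend, the replicate block and the model of 24 libraries, and 2 with voom. The count called higher (0) became 1 with median-ratio scaling and with voom. Leaving out 1 library gave 0 to 2 for the count called lower. At 72 h the count called lower (4) became 7 with voom and 3 to 7 when a library was left out, the count called higher (3) was 2 to 3, and in standard co-culture at 72 h the count called higher (0) became 1 in the model of 24 libraries. The Grem1 to Bmp4 ratio of the inverse controls at 72 h moved to 2.32 with a pseudocount of 1 and 2.47 with 0.1. In the standard controls at 24 h, with a mean of 0.60, it ranged from -0.28 to 1.99 when a library was left out and turned negative without replicate 2. The causes of these shifts were not tested. Depth limits Chrdl1, Bmp2, Bmp4 and Nog most, at 1 to 84, 13 to 255, 25 to 353 and 40 to 406 fragments per library.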
